A study of Homo sapiens with 6 samples.

Results

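NRF2, the transcription factor encoded by NFE2L2, and 43 further genes of its target programme and of redox metabolism were compared between A549 cells depleted of KMT9α and control cells. The members were chosen by name: the NRF2 and KEAP1 genes, the glutathione and thioredoxin systems, the enzymes that supply NADPH, the aldo-keto reductases and the genes that handle drugs and aldehydes. Earlier results of these data were known when they were chosen. All 44 of them were found among the 23180 gene symbols with counts, each represented by the RefSeq transcript with the most counts over the 6 samples, and all 44 passed the filter on low counts that left 13877 genes to be tested. A549 is an established line from a human lung adenocarcinoma that carries CDKN2A and KEAP1 mutations, and its genotype is otherwise given as WT in the labels. Cells at passage 11 received either siControl (3 samples) or siKMT9α#1 (3 samples), an siRNA against the KMT9α gene N6AMT1, and were taken 3 days later. One line and 1 siRNA stand for the depletion here. The labels call the samples biological replicates and do not say whether they were separate cultures, so that p-values measure the spread between these samples.

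NRF2 is made all the time and is destroyed through KEAP1, an adaptor of a CUL3 ubiquitin ligase whose cysteines react with electrophiles and oxidants. When KEAP1 is modified or mutated, NRF2 accumulates, pairs with small MAF proteins such as MAFG and binds antioxidant response elements near genes that make glutathione, reduce thioredoxin, supply NADPH and remove quinones, aldehydes and drugs. BACH1 binds the same elements as a repressor. Tumours with KEAP1 mutations, lung adenocarcinomas among them, are known for a high level of this programme, and A549 cells are widely used as an example of it.

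The element is short, and it can be seen in the promoters. RefSeq promoters of assembly GRCh38.p14, from 250 bases before to 50 bases after each gene's start, were available for 33 of the 44 genes. The core TGACNNNGC was found on either strand in 9 of the 33 promoters (27.3%), against 15.2% of the 10314 promoters of genes tested. With an A after these letters, 5 of the 33 (15.2%) held it, against 2.94%. These 5 are printed because they hold the longer form, and the ME1 and PGD windows because these genes are among the largest changes described further on. Each line has 30 bases of the gene's own strand, 5′ to 3′, with the matched letters in capitals. Matches on the other strand read as the reverse complement.
GCLM: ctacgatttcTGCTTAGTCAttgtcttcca
GPX2: gacctgttttTGCTAAGTCAtcctggggat
GSTP1: gccggcgccgTGACTCAGCActggggcgga
CBR1: ctgcgggttcTGCAAAGTCAggctagctgg
CYP4F11: cctgtgcccaTGCTGTGTCAccctgagctg
ME1: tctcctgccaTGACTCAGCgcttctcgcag
PGD: cctcgccgggGCAATGTCAtctaggtgctc
In GRCh38.p14 these windows lie at chr1:93909446-93909475 for GCLM, chr14:64942849-64942878 for GPX2, chr11:67583736-67583765 for GSTP1, chr21:36069854-36069883 for CBR1, chr19:15935005-15935034 for CYP4F11, chr6:83431169-83431198 for ME1 and chr1:10398853-10398882 for PGD, where GSTP1, CBR1 and PGD are on the plus strand and the others on the minus strand. The other 2 promoters with the shorter form were those of TXNRD1 and PIR. The GSTP1, ME1 and PIR matches also contain TGACTCA, the element bound by AP-1, on one strand or the other. A match is a run of letters and no proof of binding, and elements farther than 250 bases from a start were not looked for. RefSeq's start need not be that of the transcript counted.

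The knock-down, the depth and the identity of the cells were read from the same counts. N6AMT1 stood at 10.2, 10.8 and 11.5 CPM with siControl and 2.87, 3.22 and 3.35 CPM with siKMT9α#1, 29.3% of the control level. Totals over the transcripts used were 15551778 to 18568639.5 counts with siControl and 13740097 to 19832395.5 counts with siKMT9α#1. CDKN2A, which A549 cells lack, had 0 counts in all 6 samples, and KRT7, KRT8 and KRT18, keratins of simple epithelia, were at 502.0 CPM or above in every sample. KRT8, KRT18 and KRT19 were called lower after knock-down, with log2 fold changes of -1.28, -0.75 and -0.68, and KRT7 was not called (0.0095). The epithelial adhesion genes EPCAM and CDH1 were below 10 CPM throughout, EPCAM called lower (-2.76) and CDH1 called higher (1.34). Of the 8 markers of immune, endothelial and fibroblast cells, CD3E and COL1A2 had 0 counts throughout and PTPRC, PECAM1, CDH5 and DCN were below 1 CPM. COL1A1 was called lower, with means of 4.27 CPM with siControl and 2.80 CPM with siKMT9α#1. The summed level of the 8 markers was 82.3 to 89.6 CPM with siControl and 30.04 to 31.4 CPM with siKMT9α#1. Nearly all of it was CD68, which was called lower (-1.53), and its part in the results was not tested. In such bulk samples, fewer cells of a type and less RNA per cell cannot be told apart.

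As a group, the 44 genes changed more often than other genes, and in both directions. The list was chosen with earlier results of these data known, so these shares only describe it and were given no set test. In the quasi-likelihood test of edgeR, adjusted by Benjamini-Hochberg across the whole table, 42 of the 44 (95.5%) had an adjusted p under 0.05, against 75.6% of all genes. Of these, 30 were lower and 12 higher after knock-down, where 38.5% of all genes were called lower and 37.1% higher. At the study's stricter threshold, a log2 fold change beyond 0.26 in either direction at P below 1e-08, 30 of the 44 (68.2%) passed, against 24.2% of all genes. In this count 20 were lower (45.5%, against 10.7%) and 10 higher (22.7%, against 13.5%), 12 of them by more than 2-fold downward (5.54% of all genes) and 7 by more than 2-fold upward (7.27% of all genes). The study names edgeR without saying which test, so these counts need not match its own. With the likelihood-ratio test of edgeR, 37 of the 44 and 5962 of the 13877 genes tested passed, against 3357 with the quasi-likelihood test. The median log2 fold change of the 44 genes was -0.41, against -0.01 over all genes tested, and the median of its absolute size was 0.85, against 0.47. The siControl and siKMT9α#1 values were fully separated in 41 of the 44 genes, against 77.0% of all genes. The genes have more counts than most, with a median standard error of 0.052 on the log2 scale against 0.077 for all genes, so more of them can pass a test at the same size of change. Without TMM, on library sizes only, the median over all genes shifted from -0.01 to -0.12 and that of the 44 genes from -0.41 to -0.51. On that scale 1516 of all genes passed the study's threshold upward and 1862 downward, against 1878 and 1479 with TMM.

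**Figure D1:**
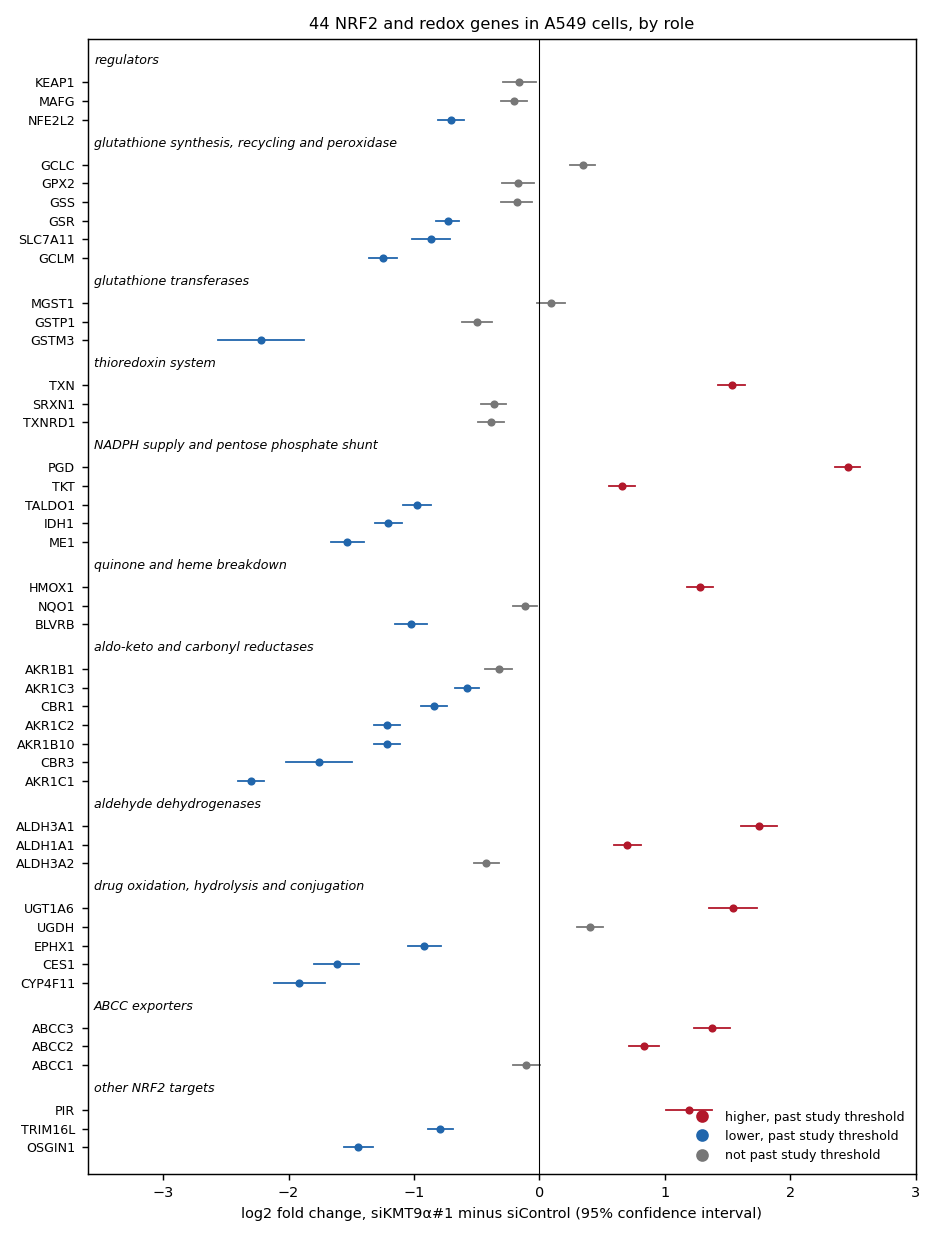
Log2 fold change (siKMT9α#1 minus siControl, x axis) of each of the 44 genes, grouped by role, as points with 95% confidence intervals from 3 samples per group. Red and blue points passed the study's threshold upward (10 genes) and downward (20 genes), and all 7 aldo-keto and carbonyl reductases lie left of 0 while the other large roles are split.

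In siControl cells the programme was abundant. Per kilobase of transcript, 25 of the 44 genes were among the highest 10% of the genes tested and 9 were among the highest 1%. The order of these 9, from the top, was AKR1B1 at 1147 CPM per kb, TXNRD1 at 941, AKR1C2 at 877, ALDH1A1 at 832, BLVRB at 805, AKR1B10 at 731, AKR1C3 at 716, GSTP1 at 596 and HMOX1 at 518. Only PIR, UGT1A6 and GSTM3 among the 44 were in the lower 50% of genes. Summed over the 44 genes, the level was 20354 to 20924 CPM with siControl and 19697 to 19725 CPM with siKMT9α#1. The sum fell by far less than many single genes did, since rises, of ALDH1A1 and HMOX1 for example, stood beside the falls.

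**Figure D2:**
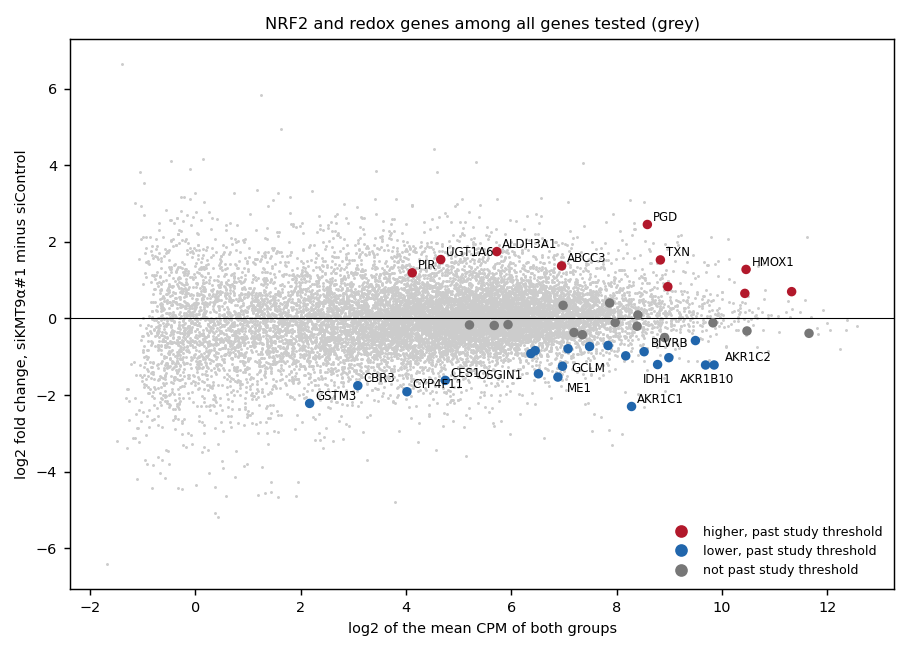
Log2 fold change (y axis) against the log2 of the mean CPM of both groups (x axis) for all genes tested (grey) and the 44 NRF2 and redox genes (coloured points, red higher and blue lower past the study's threshold). Most of the 44 genes lie in the right part of the plot, among abundant genes, and PGD and AKR1C1 are the farthest from 0 among those above 100 CPM.

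Among the regulators, NRF2 mRNA fell. In the sentences that follow, CPM values are given for replicates 1, 2 and 3 in that order. NFE2L2, at chromosome 2 from 178095033 to 178129859 of hg19, was at 287, 283 and 280.2 CPM with siControl and 169, 169 and 183 CPM with siKMT9α#1 (log2 fold change -0.71, standard error 0.048, adjusted p = 9.79e-11). All siControl samples lay above all siKMT9α#1 samples, and the 2 other NFE2L2 transcripts fitted on their own gave -0.71 and -0.71, from largely the same exons. KEAP1, at chromosome 19 from 10596796 to 10614054, was at 58.2, 65.4 and 70.4 CPM with siControl and 58.8, 58.4 and 56.6 CPM with siKMT9α#1 (log2 fold change -0.16, standard error 0.064, adjusted p = 0.0293). Its groups overlapped, and the call was lost with per-sample offsets for GC content and transcript length (adjusted p = 0.994) and with DESeq2. It was also lost without siControl replicate 2 or 3 or siKMT9α#1 replicate 2 or 3 (adjusted p = 0.0853, 0.29, 0.063 and 0.075), with a log2 fold change of -0.081 without siControl replicate 3. MAFG, the small MAF partner of NRF2, was at 348, 359 and 368 CPM with siControl and 331, 307 and 297 CPM with siKMT9α#1 (log2 fold change -0.20, standard error 0.050, adjusted p = 0.00127), without overlap of the groups.

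In the glutathione pathway, uptake, recycling and 1 subunit of the first synthetic enzyme fell while the other subunit rose. SLC7A11, the cystine importer that supplies the cysteine of glutathione, at chromosome 4 from 139085248 to 139163503, was at 526, 445 and 454 CPM with siControl and 241, 244 and 295 CPM with siKMT9α#1 (log2 fold change -0.87, standard error 0.073, adjusted p = 2.08e-09). GCLM, the modifier subunit of glutamate-cysteine ligase, at chromosome 1 from 94352590 to 94375012, was at 180.2, 182 and 168 CPM with siControl and 71.6, 71.8 and 79.2 CPM with siKMT9α#1 (log2 fold change -1.25, standard error 0.054, adjusted p = 1.08e-13). GCLC, the catalytic subunit of the same enzyme, at chromosome 6 from 53362140 to 53409927, was at 117, 109 and 109 CPM with siControl and 138, 139 and 147 CPM with siKMT9α#1 (log2 fold change 0.34, standard error 0.049, adjusted p = 3.56e-06). The subunits thus moved apart: all GCLM samples were lower and all GCLC samples higher after knock-down. GSR, glutathione reductase, which uses NADPH to recycle oxidised glutathione, was at 224, 224 and 224 CPM with siControl and 137, 134 and 133 CPM with siKMT9α#1 (log2 fold change -0.73, standard error 0.045, adjusted p = 2.03e-11), and its replicates were among the closest of the 44 genes. GSS, the second synthetic enzyme, was at 51.5, 58.2 and 53.4 CPM with siControl and 49.7, 47.4 and 46.6 CPM with siKMT9α#1 (log2 fold change -0.18, standard error 0.059, adjusted p = 0.00954), and GPX2, a glutathione peroxidase of epithelia, at 40.5, 39.7 and 36.96 CPM with siControl and 34.8, 35.7 and 33.9 CPM with siKMT9α#1 (log2 fold change -0.17, standard error 0.062, adjusted p = 0.0188). Neither of these small changes held with the GC and length offsets, where GSS had a log2 fold change of -0.0096 and GPX2 of 0.058, and neither held in every fit with a sample left out (adjusted p = 0.0925 for GSS without siControl replicate 2 and 0.111, 0.0727 and 0.0604 for GPX2 without siControl replicate 1, siControl replicate 2 or siKMT9α#1 replicate 3). The deposited span of GPX2 lies within that of CHURC1-FNTB and its counts are uncertain for that reason. Spans of other genes also overlapped for SLC7A11 with SLC7A11-AS1, TXNRD1 with EID3 and EPHX1 with TMEM63A.

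**Figure D3:**
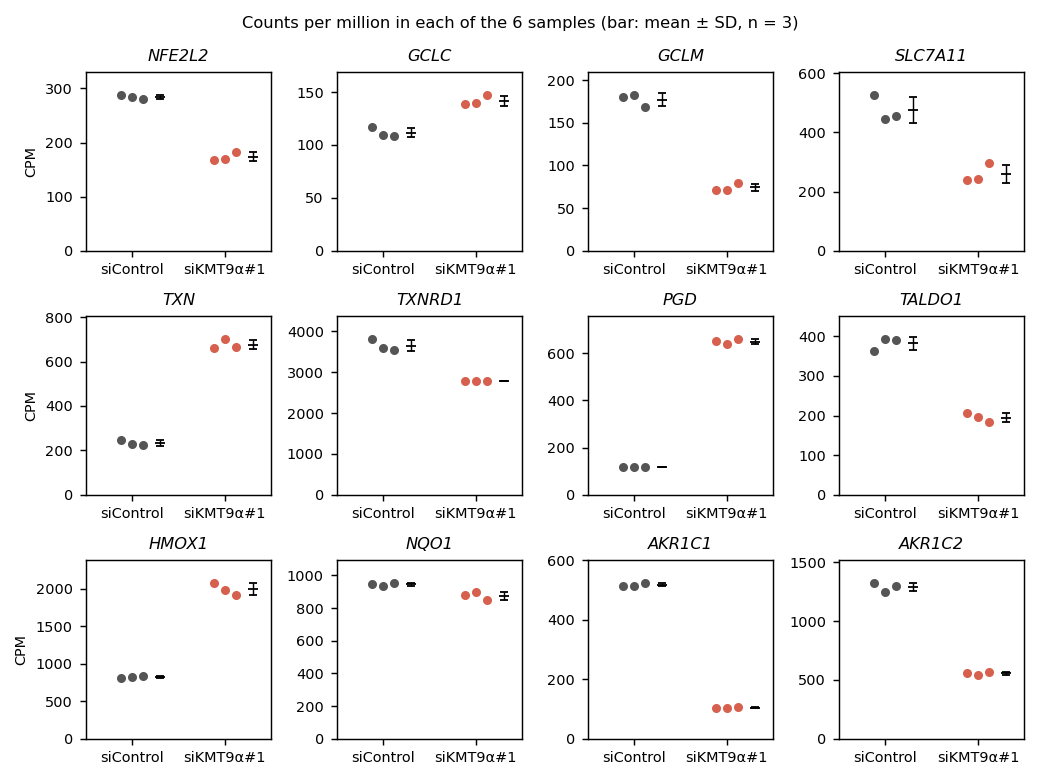
CPM (y axis, from 0) of 12 of the genes in each of the 6 samples, siControl in grey and siKMT9α#1 in red, with a bar for the mean ± SD of 3 samples beside each group. The groups are apart in all 12 panels, by the least in NQO1.

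The glutathione transferases, which join glutathione to electrophiles, did not move together. GSTP1, the abundant cytosolic form, was at 546, 579.8 and 565 CPM with siControl and 427, 408 and 363 CPM with siKMT9α#1 (log2 fold change -0.50, standard error 0.056, adjusted p = 1.3e-07), and with the GC and length offsets its log2 fold change shrank to -0.20. GSTM3 was low in control cells and lower after knock-down, at 6.56, 7.56 and 8.14 CPM with siControl and 1.44, 1.64 and 1.70 CPM with siKMT9α#1 (log2 fold change -2.22, standard error 0.16, adjusted p = 2.73e-10). MGST1, the microsomal form, was at 350.5, 319 and 314 CPM with siControl and 333, 347 and 368 CPM with siKMT9α#1 with overlapping groups and was not called (log2 fold change 0.091, standard error 0.053, adjusted p = 0.127). Its log2 fold change was -0.014 with the library size alone and 0.29 with the GC and length offsets, where it passed (adjusted p = 8.18e-06), and it also passed without siControl replicate 1 (0.16, adjusted p = 0.00849).

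Thioredoxin and its reductase changed in opposite directions. TXN, the small protein that reduces disulfides, at chromosome 9 from 113006092 to 113018920, was at 249, 227 and 226 CPM with siControl and 663, 701 and 665 CPM with siKMT9α#1 (log2 fold change 1.53, standard error 0.051, adjusted p = 2.85e-15). Every siKMT9α#1 sample had more than 2 times the TXN level of any siControl sample. TXNRD1, the NADPH-dependent selenoenzyme that reduces thioredoxin, at chromosome 12 from 104680727 to 104744062, had the highest CPM of the 44 genes in siControl cells, at 3806, 3588 and 3549 CPM with siControl and 2779, 2795 and 2790.1 CPM with siKMT9α#1 (log2 fold change -0.39, standard error 0.050, adjusted p = 8.71e-07). SRXN1, sulfiredoxin, which restores overoxidised peroxiredoxins, was at 163, 168 and 162 CPM with siControl and 131, 128 and 124 CPM with siKMT9α#1 (log2 fold change -0.37, standard error 0.047, adjusted p = 7.8e-07). Both were called lower without overlap of the groups, and both missed the study's threshold on P.

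The genes that supply NADPH held the largest rise of all 44 and some of the largest falls. PGD, 6-phosphogluconate dehydrogenase, which makes NADPH in the oxidative part of the pentose phosphate pathway, at chromosome 1 from 10459085 to 10480201, was at 119, 117 and 118 CPM with siControl and 650.0, 638 and 658 CPM with siKMT9α#1. This was a 5.49-fold rise (log2 fold change 2.46, standard error 0.047, adjusted p = 2.29e-18), with a 95% confidence interval of 2.36 to 2.56 on the log2 scale. TKT, transketolase of the non-oxidative part, was at 1031, 1062 and 1128 CPM with siControl and 1740.5, 1672 and 1664 CPM with siKMT9α#1 (log2 fold change 0.66, standard error 0.050, adjusted p = 5.24e-10). TALDO1, transaldolase of that same part, lies at chromosome 11 from 747432 to 765024 and went the other way, at 363, 393 and 392 CPM with siControl and 206, 195 and 183 CPM with siKMT9α#1 (log2 fold change -0.98, standard error 0.053, adjusted p = 2.97e-12). The cytosolic enzymes that make NADPH outside the pathway fell as well. ME1, malic enzyme, at chromosome 6 from 83920110 to 84140938, was at 179, 176 and 172 CPM with siControl and 53.8, 61.2 and 66.7 CPM with siKMT9α#1 (log2 fold change -1.53, standard error 0.061, adjusted p = 3.46e-14), and IDH1, isocitrate dehydrogenase, at 642, 598 and 596 CPM with siControl and 253, 266 and 277 CPM with siKMT9α#1 (log2 fold change -1.20, standard error 0.051, adjusted p = 7.84e-14). All 5 of these genes passed the study's threshold, 2 upward and 3 downward, against 24.2% of all genes in either direction. In none did the groups overlap, as in 77.0% of all genes.

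In quinone and heme breakdown, NQO1 and HMOX1, which are often read together as reporters of NRF2, differed widely. NQO1, the quinone reductase, at chromosome 16 from 69743304 to 69760533, was at 948, 936 and 952 CPM with siControl and 877, 895 and 849 CPM with siKMT9α#1. The difference was small (log2 fold change -0.11, standard error 0.046, adjusted p = 0.032), and the call was lost in 11 of the 16 other fits, RLE scaling, the GC and length offsets, the replicate number as a block (adjusted p = 0.0768) and the omission of any 1 sample among them. HMOX1, heme oxygenase, a target of both NRF2 and the repressor BACH1, at chromosome 22 from 35777060 to 35790207, was at 805, 821 and 830.0 CPM with siControl and 2072, 1984 and 1919 CPM with siKMT9α#1 (log2 fold change 1.28, standard error 0.049, adjusted p = 1.83e-14). BLVRB, biliverdin reductase B, was at 634, 706 and 706 CPM with siControl and 359, 347 and 302 CPM with siKMT9α#1 (log2 fold change -1.02, standard error 0.062, adjusted p = 1.53e-11). The HMOX1 samples with siKMT9α#1 were all more than 2 times the siControl samples, while all BLVRB samples with siKMT9α#1 were below those with siControl.

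The aldo-keto and carbonyl reductases, NADPH-dependent enzymes that reduce aldehydes, ketones and quinones, were, of the roles with 5 or more genes, the one in which every gene was lower. All 7 were called lower, against 38.5% of all genes, and 6 of them passed the study's threshold, against 10.7% downward. The groups did not overlap in any of the 7, as in 77.0% of all genes. In the smaller role of the regulators, all 3 genes were called lower too. AKR1C1, at chromosome 10 from 5005454 to 5020158, was at 515, 515 and 523 CPM with siControl and 103, 105 and 108 CPM with siKMT9α#1 (log2 fold change -2.30, standard error 0.048, adjusted p = 5.36e-18), the largest fall of the 44 genes. AKR1C2, from 5031965 to 5060207 in the same cluster on chromosome 10, was at 1322, 1249.5 and 1298 CPM with siControl and 558, 542 and 567 CPM with siKMT9α#1 (log2 fold change -1.22, standard error 0.048, adjusted p = 2.6e-14). AKR1C3, from 5136568 to 5149878, was at 868, 862 and 862 CPM with siControl and 564, 584 and 590.2 CPM with siKMT9α#1 (log2 fold change -0.58, standard error 0.046, adjusted p = 9.14e-10). The falls in these neighbours were thus of unequal size, with AKR1C1 at 20.3%, AKR1C2 at 43.1% and AKR1C3 at 67.1% of the control level. The AKR1C genes are near copies. In their annotated coding sequences of 969 bases, AKR1C1 and AKR1C2 were identical at 98.0% of aligned positions. Of the 50-base windows of the AKR1C1 coding sequence, 51.6% also occur in the AKR1C2 transcript, so that reads of one could be counted on the other. With the counts of both added up, the log2 fold change was -1.45 (standard error 0.05). AKR1C1 and AKR1C3 were identical at 92.0% and shared 14.7% of such windows.

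The other reductases followed. AKR1B10, at chromosome 7 from 134212344 to 134226166, was at 1193, 1104 and 1163 CPM with siControl and 483, 488 and 518 CPM with siKMT9α#1 (log2 fold change -1.22, standard error 0.050, adjusted p = 5.16e-14). It shared 19.8% of its 50-base windows with AKR1B15. AKR1B1, aldose reductase, its neighbour from 134127107 to 134143888 and the most abundant of the 44 genes per kilobase, was at 1549, 1615 and 1583 CPM with siControl and 1310.1, 1293 and 1185 CPM with siKMT9α#1 (log2 fold change -0.33, standard error 0.051, adjusted p = 1.06e-05), and with the GC and length offsets its log2 fold change was -0.13 (adjusted p = 0.00633). CBR1 was at 107, 114 and 117 CPM with siControl and 62.4, 63.3 and 62.7 CPM with siKMT9α#1 (log2 fold change -0.84, standard error 0.051, adjusted p = 1.7e-11). Its deposited span lies within LOC100133286. CBR3 was at 11.4, 14.6 and 13.4 CPM with siControl and 3.78, 3.98 and 3.84 CPM with siKMT9α#1 (log2 fold change -1.76, standard error 0.13, adjusted p = 2.11e-10), and its span overlaps that of CBR3-AS1. The 7 reductases summed to 5473 to 5565 CPM with siControl and 3034 to 3084 CPM with siKMT9α#1.

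Of the aldehyde dehydrogenases, ALDH1A1 and ALDH3A1 rose and ALDH3A2 fell. ALDH1A1, a retinal dehydrogenase, was at 2019.9, 1874 and 1954 CPM with siControl and 3087, 3188 and 3236 CPM with siKMT9α#1 (log2 fold change 0.70, standard error 0.050, adjusted p = 2.01e-10). ALDH3A1, at chromosome 17 from 19641298 to 19651746, was at 25.2, 21.5 and 26.0 CPM with siControl and 77.9, 80.3 and 86.6 CPM with siKMT9α#1 (log2 fold change 1.75, standard error 0.069, adjusted p = 2.74e-14). ALDH3A2, the fatty aldehyde dehydrogenase, was at 194, 181 and 186 CPM with siControl and 138, 138 and 141 CPM with siKMT9α#1 (log2 fold change -0.42, standard error 0.047, adjusted p = 1.17e-07).

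Among the genes of drug oxidation, hydrolysis and conjugation the direction depended on the enzyme. EPHX1, the microsomal epoxide hydrolase, was at 118, 103 and 104 CPM with siControl and 56.5, 54.2 and 61.2 CPM with siKMT9α#1 (log2 fold change -0.92, standard error 0.062, adjusted p = 8.37e-11). CYP4F11, a fatty acid hydroxylase, was at 27.9, 24.3 and 24.5 CPM with siControl and 6.69, 7.49 and 6.38 CPM with siKMT9α#1 (log2 fold change -1.91, standard error 0.096, adjusted p = 1e-12). CES1, a carboxylesterase, was at 44.8, 36.8 and 40.1 CPM with siControl and 12.5, 12.4 and 14.4 CPM with siKMT9α#1 (log2 fold change -1.62, standard error 0.087, adjusted p = 2.5e-12). These 3 fell past the study's threshold, whereas the genes of glucuronidation rose. UGDH, which makes the UDP-glucuronic acid that the transferases use, was at 206, 195 and 202 CPM with siControl and 255, 263 and 280.3 CPM with siKMT9α#1 (log2 fold change 0.41, standard error 0.049, adjusted p = 4.05e-07), short of that threshold. UGT1A6, a UDP-glucuronosyltransferase, was at 14.7, 11.5 and 12.7 CPM with siControl and 34.2, 36.9 and 41.7 CPM with siKMT9α#1 (log2 fold change 1.54, standard error 0.091, adjusted p = 1.1e-11). The UGT1A genes share their last exons, and 44.5% of the 50-base windows of UGT1A6 also occur in UGT1A1. UGT1A1 and UGT1A10 had about the same counts as UGT1A6, so the rise was counted over the UGT1A locus and cannot be given to UGT1A6 alone.

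The ABCC exporters, which pump conjugates and drugs out of the cell, rose in 2 of 3 cases. ABCC2 was at 387, 343 and 354 CPM with siControl and 616, 617 and 695 CPM with siKMT9α#1 (log2 fold change 0.83, standard error 0.058, adjusted p = 1.22e-10), and ABCC3 at 74.5, 62.0 and 70.7 CPM with siControl and 169, 171 and 197 CPM with siKMT9α#1 (log2 fold change 1.37, standard error 0.068, adjusted p = 7.31e-13). ABCC1 was at 271, 244 and 266 CPM with siControl and 241, 231 and 253 CPM with siKMT9α#1, with overlapping groups and no call (log2 fold change -0.11, standard error 0.052, adjusted p = 0.0731). Its log2 fold change was -0.21 with the library size alone and -0.28 with the GC and length offsets, both of which passed. It also passed without siControl replicate 2 (adjusted p = 0.0319) or siKMT9α#1 replicate 3 (adjusted p = 0.0208), and without siControl replicate 1 it was at -0.058.

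The remaining targets were OSGIN1, PIR and TRIM16L. OSGIN1, an oxidative stress-induced growth inhibitor, was at 127, 136 and 137 CPM with siControl and 50.1, 51.3 and 46.2 CPM with siKMT9α#1 (log2 fold change -1.45, standard error 0.055, adjusted p = 1.63e-14). PIR, pirin, an iron-binding nuclear protein, was at 10.3, 11.5 and 10.1 CPM with siControl and 22.6, 23.4 and 26.3 CPM with siKMT9α#1 (log2 fold change 1.19, standard error 0.088, adjusted p = 3.17e-10). Its span overlaps PIR-FIGF. TRIM16L was at 165, 173 and 175 CPM with siControl and 101, 98.8 and 97.1 CPM with siKMT9α#1 (log2 fold change -0.79, standard error 0.048, adjusted p = 1.52e-11), and 31.1% of its 50-base windows also occur in the transcript of TRIM16, which was itself lower.

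Within a sample, the levels of partner genes were also set against each other per length, for 4 pairs chosen after their values had been seen. The GCLC to GCLM ratio went from 0.511 to 1.55, so that the catalytic subunit passed from the lower to the higher of the pair. The TXN to TXNRD1 ratio went from 0.289 to 1.09, and the PGD to TALDO1 ratio from 0.199 to 2.14. The AKR1C1 to AKR1C2 ratio went from 0.434 to 0.204. On the log2 scale these are differences of 1.60, 1.92, 3.43 and -1.09, and within either group the SD was at most 0.098. Since the pairs were picked for partners that had moved apart, these ratios are a description only, and no p-value is reported for them.

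**Figure D4:**
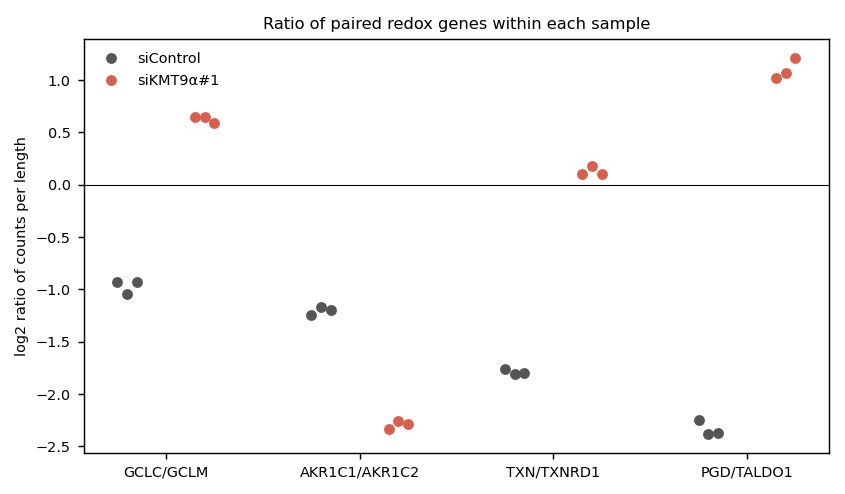
Log2 ratio of counts per length (y axis) of 4 pairs of genes within each sample, siControl in grey and siKMT9α#1 in red, 3 samples each. The GCLC/GCLM, TXN/TXNRD1 and PGD/TALDO1 ratios cross 0, from below in all siControl samples to above in all siKMT9α#1 samples.

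Promoter matches were laid beside these changes. Of the 9 genes with TGACNNNGC, 7 were called lower (77.8%) and 2 higher. Of the 24 genes with a promoter entry and no match, 16 were called lower (66.7%) and 7 higher. Over all genes tested, 40.9% of those with the core and 38.0% of those without it were called lower. All 5 genes with the A after the core were called lower, GPX2 by the unstable change given with the glutathione genes. Of the 28 members with a promoter entry and without that form, 18 were called lower (64.3%) and 9 higher. Over the 303 genes tested with that form, 44.2% were called lower. A part of the motif in these changes was not tested.

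A further 71 redox genes outside the 44 were listed under 5 broader roles, again with earlier results of these data known. The filter was passed by 67 of them. Of these, 53 (79.1%) had an adjusted p under 0.05, close to the 75.6% of all genes, with 36 lower (53.7%, against 38.5%) and 17 higher (25.4%, against 37.1%). The study's threshold was passed by 27 (40.3%, against 24.2%), 22 lower (32.8%, against 10.7%) and 5 higher (7.46%, against 13.5%). Their median log2 fold change was -0.36, against -0.01 over all genes tested. GSTM1 and GSTM2 had at most 1.23 CPM, GSTT1 and ADH7 had 0 counts in all samples, and these 4 were not tested.

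The 10 largest of these changes above 1 on the log2 scale were ABHD4 at -2.94, TXNIP at -2.57, CYP4F3 at -2.56, GPX3 at -2.07, RPE at 1.96, IDH2 at -1.78, ME3 at 1.69, BACH1 at -1.59, GPX8 at -1.56 and GLRX at -1.45. CYP4F3 is a relative of CYP4F11, GPX3 and GPX8 are peroxidases, and GLRX is glutaredoxin, which removes glutathione from protein cysteines. TXNIP, the protein that binds and inhibits thioredoxin, was at 364, 354 and 349 CPM with siControl and 56.0, 58.0 and 64.5 CPM with siKMT9α#1 (log2 fold change -2.57, standard error 0.056, adjusted p = 8.48e-18), opposite in direction to TXN. BACH1, the repressor that competes with NRF2, was at 81.5, 81.1 and 78.6 CPM with siControl and 23.3, 26.5 and 29.7 CPM with siKMT9α#1 (log2 fold change -1.59, standard error 0.069, adjusted p = 1.12e-13). Whether this fall had a part in the changes of its targets, HMOX1 among them, was not tested. RPE, which works between PGD and TKT in the pentose phosphate pathway, was at 36.9, 35.7 and 34.0 CPM with siControl and 136, 144 and 136 CPM with siKMT9α#1 (log2 fold change 1.96, standard error 0.053, adjusted p = 1.64e-16). IDH2, the mitochondrial counterpart of IDH1, fell as IDH1 did, whereas the mitochondrial malic enzyme ME3 rose while ME1 fell.

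**Figure D5:**
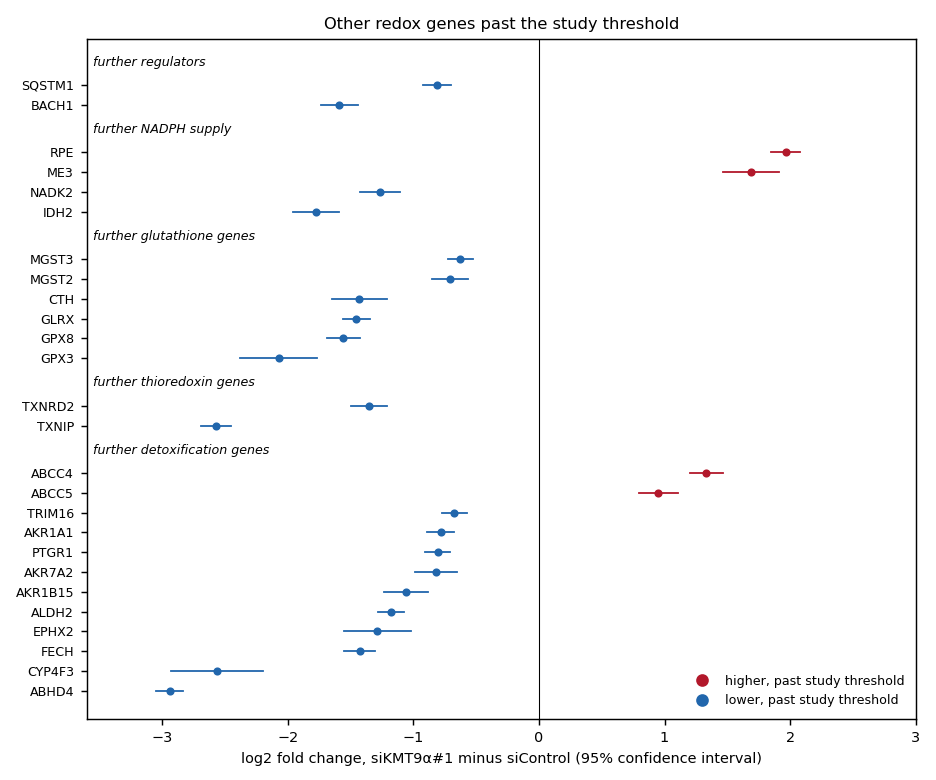
Log2 fold change (siKMT9α#1 minus siControl, x axis) of 26 of the 27 other redox genes past the study's threshold, by role, with 95% confidence intervals from 3 samples per group. The 22 genes in blue were lower, ABHD4 the farthest, and the 4 in red were RPE, ME3, ABCC4 and ABCC5.

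Of the reductases outside the 44, AKR1A1, AKR7A2, AKR1B15, CBR4, PTGR1, PTGR2 and the biliverdin reductase BLVRA were called lower, with log2 fold changes from -1.06 to -0.46, and the quinone reductase NQO2 was called higher (log2 fold change 0.20, standard error 0.063, adjusted p = 0.00648). ABCC4 and ABCC5, 2 more exporters, were called higher at 1.33 and 0.95, and ABCG2 was not called (log2 fold change -0.092, standard error 0.055, adjusted p = 0.137). Of the 19 further glutathione genes tested, 13 were called lower (68.4%, against 38.5% of all genes) and 3 higher (15.8%, against 37.1%). Among the further regulators, SQSTM1, which binds KEAP1 and is an NRF2 target, was called lower at -0.81, and NFE2L1 and NFE2L3, the NRF2 relatives, were called higher at 0.44 and 0.60.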

How the data were processed

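RNA of 6 A549 samples, 3 per siRNA, was sequenced. Estimated counts per RefSeq transcript were deposited by the authors without normalization, after STAR alignment to hg19 and counting with HOMER. They come in steps of 0.5, and 36.4% of them were not whole. The counting options, the strand and the library type are not given in the sources used here. A fold change (a linear ratio), p-values and adjusted p-values from the authors' own edgeR comparison stand in the same deposited table, beside the transcript length, and were not used.

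Of 38767 rows, 1182 without symbol and counts were left out. For each symbol the transcript with the largest summed count was used, rounded to whole numbers, and tested in edgeR 4.0.16 (R 4.3.3) with TMM, filterByExpr and the two-sided quasi-likelihood F test, adjusted by Benjamini-Hochberg over 13877 genes. The standard error is the size of the log2 fold change over the square root of F, and intervals are at 95%. CPM values are scaled by TMM. Genes were called at an adjusted p under 0.05 or at the study's threshold. The fit was tested on simulated data. GC contents, coding sequences and shared windows came from a GRCh37 annotation and covered 98.8% of the genes tested, and alignments were made with Biopython 1.88. Alternatives were DESeq2 1.42.0, other scalings, filters and tests, sums over transcripts, a block for the replicate number and the omission of each sample. GC and length offsets were chosen after seeing the data. The members, the other redox genes and the markers were chosen with earlier results of these data known. All 44 members and N6AMT1 were named, and of the other redox genes the 10 largest past the study's threshold with an absolute log2 fold change above 1 and a mean of at least 1 CPM. ABCG2, AKR1A1, AKR7A2, AKR1B15, PTGR1, PTGR2, CBR4, BLVRA, NQO2, ABCC4, ABCC5, SQSTM1, NFE2L1 and NFE2L3 were named after their values had been seen. Some values are not reported here.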

Additional observations from a re-analysis of the deposited data

How the results depend on the processing

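Across the alternatives, the number of members called stayed between 39 and 43 and the number past the study's threshold between 28 and 37. Leaving out each sample in turn gave 39 to 41 and 28 to 32 members, 53 to 55 and 23 to 35 other redox genes, a median log2 fold change of the members of -0.42 to -0.37, and a log2 fold change of N6AMT1 of -1.83 to -1.71. The other redox genes past the study's threshold were 27, but 42 with the likelihood-ratio test and 43 without the filter on low counts. The median of the members was -0.51 with the library size alone, -0.36 with GC and length offsets, and -0.36 with these offsets and the block. The single results that reversed were MGST1 with the library size alone (-0.014) and GPX2 with the offsets (0.058, and 0.061 with the block). For these the cause was not tested. The replicate numbers did not pair the samples, since deviations from the group means correlated at -0.08, 0.02 and -0.08. When this number entered as a replicate block, 41 members were called and 28 passed the study's threshold. With the library size alone the log2 fold changes of KEAP1, MAFG, GSS, GPX2 and NQO1 were -0.27, -0.31, -0.29, -0.27 and -0.22, that of NQO1 with the offsets was -0.074, and that of MGST1 without siKMT9α#1 replicate 3 was 0.054. Over all genes, 3357 passed the study's threshold, against 5962 with the likelihood-ratio test, 6070 without the filter, 2164 with sums over transcripts and 5145 with the offsets and the block. Shared exons and near copies limit the AKR1C and UGT1A values.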
